A study of Mus musculus with 3 samples.

Results

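The genes described here encode 10 enzymes that hydroxylate collagen inside the cell or crosslink it outside: 5 lysyl oxidases (Lox and Loxl1 to Loxl4), 3 lysyl hydroxylases (Plod1 to Plod3) and 2 catalytic alpha subunits of prolyl 4-hydroxylase (P4ha1 and P4ha2). They were taken by symbol from a table of 46983 genes, and each symbol matched 1 row. The table came from bulk RNA sequencing of cells sorted by flow cytometry from the dissected leptomeninges of mice, the thin inner membranes around the brain. All 3 libraries, numbered as in the labels, belonged to 1 group, a pia-enriched fraction of mice given vehicle. Strain, sex, age, the nature of the vehicle, the sorting gate and the number of animals behind a library were not given in the labels. Nothing there says that the libraries came from separate mice, so spreads and p-values describe these samples, whose differences may be technical. With 1 group, the comparisons were those between enzymes within a library and those between libraries.

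Collagen chains are modified in the endoplasmic reticulum before they leave the cell. Prolyl 4-hydroxylase, a tetramer of alpha subunits with the protein disulfide isomerase P4hb, makes the hydroxyproline that keeps the triple helix stable at body temperature. Lysyl hydroxylases convert chosen lysines to hydroxylysine, which carries sugars and shapes the kind of crosslink that can form. Both kinds of hydroxylase use iron, oxygen, 2-oxoglutarate and ascorbate. Secreted lysyl oxidases, which need copper, then oxidize lysines and hydroxylysines of collagen and elastin to the aldehydes from which crosslinks arise. In the leptomeninges, fibroblasts are the main source of collagen.

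The catalytic stretch around the copper-binding histidines is shown for 4 lysyl oxidases, because it is a conserved part of the family and so bears on whether reads can be told apart. Each line gives 48 bases of coding sequence, 5′ to 3′ on the sense strand, from GENCODE M21 transcripts on GRCm38, with the histidine codons in capitals.
Loxl1: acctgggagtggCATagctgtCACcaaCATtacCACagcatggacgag
Loxl2: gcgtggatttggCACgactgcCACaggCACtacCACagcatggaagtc
Loxl3: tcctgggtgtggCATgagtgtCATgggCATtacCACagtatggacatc
Loxl4: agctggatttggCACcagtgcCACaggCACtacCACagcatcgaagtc
The stretch crosses an exon junction in each of these genes, so that its genomic span includes an intron. It ran from exon 3 to exon 4 of 7 in Loxl1 (chr9:58293708-58294384, minus strand) and from exon 10 to exon 11 of 14 in Loxl2 (chr14:69682313-69689049, plus strand). In Loxl3 it likewise joined exons 10 and 11 of 14 (chr6:83049992-83050137, plus strand), and in Loxl4 exons 11 and 12 of 15 (chr19:42598795-42599902, minus strand). Each stretch was found by a pattern of residues that includes these 4 histidines. Their equal places in each gene therefore follow from the search.

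Loxl2 and Loxl4 had the most similar stretches of the 4 printed, with 42 of 48 bases alike (87.5%). Loxl1 and Loxl4 had the least similar ones, with 31 of 48 (64.6%). Lox, whose sequence is not shown, matched Loxl1 at 45 of 48 bases (93.8%). Over whole annotated transcripts, the longest run of bases shared by a pair of enzymes of the same family was 11 to 32 bases. For Plod1 and Plod3 it had 24 bases (atggaacactatggccagtggtct), and for P4ha1 and P4ha2 it had 16 (ctgtggatggagcagg). None of the 45 pairs of the 10 genes shared a run of 50 bases, the read length given in the labels. The longest run over all pairs had 47 bases, between Loxl2 and Plod3, which is close to that length. Runs shared with genes other than these 10 were not searched for.

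Together the 10 genes took 0.173%, 0.165% and 0.155% of all gene counts in libraries 1, 2 and 3 (0.164% ± 0.0094, SD, n = 3). Levels are given as counts per 1000000 gene counts (CPM) on scaled library sizes. To compare genes, CPM was divided by the kilobases of annotated exon of each gene, since long transcripts give more reads. On that scale the prolyl 4-hydroxylase alpha subunits summed to 133 ± 7.82 CPM per kilobase (SD, n = 3). The lysyl hydroxylases summed to 106 ± 14.6 and the lysyl oxidases to 91.5 ± 10.2. These sums depended on the length used: divided by the longest protein-coding transcript of each gene, they were 220 ± 25.4, 193 ± 30.3 and 94.8 ± 11.2 in the same order. The median of the 10 genes was 29.5 CPM per kilobase, beside 3.71 for the 14409 genes that passed the filter on low counts described below.

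**Figure D1:**
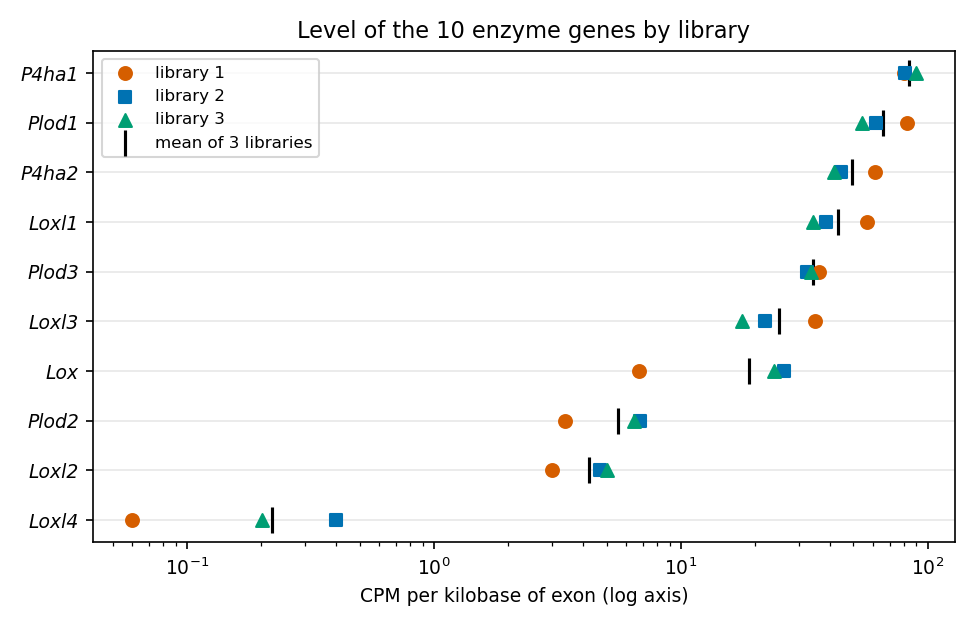
Level of each enzyme gene in the 3 libraries, in CPM per kilobase of annotated exon on a log axis; symbols are libraries and the vertical tick is their mean. P4ha1 is highest by mean at 83.6, Loxl4 lies apart from all others at 0.221, and Lox is low in library 1 at 6.78 against 26.2 and 23.8.

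P4ha1 (ENSMUSG00000019916.14, chromosome 10, 59323296 to 59373304, GRCm38) encodes an alpha subunit of wide distribution. It stood at 330, 334 and 367 CPM in libraries 1, 2 and 3, or 83.6 ± 4.97 CPM per kilobase (SD, n = 3). The libraries lay close together, with the highest 1.11 times the lowest. P4ha2 (ENSMUSG00000018906.14, chromosome 11, 54100095 to 54131665), the other alpha subunit measured here, was at 380, 278 and 261 CPM, or 49.1 ± 10.4 CPM per kilobase. Its level was highest in library 1.

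Within each library P4ha1 exceeded P4ha2 per kilobase of exon, by 0.40, 0.87 and 1.09 on the log2 scale. It made up 56.8%, 64.6% and 68.1% of the summed alpha subunits. This order rested on the gene length used. P4ha2 has 15 annotated transcripts whose exons together cover 6239 bases, while its longest protein-coding transcript has 2263. Divided by that transcript, P4ha2 was at 135 ± 28.6 CPM per kilobase and P4ha1 at 85.0 ± 5.06, and the mean difference turned to -0.65. Which alpha subunit was the more abundant per transcript is therefore not settled by these counts. P4ha3, a further alpha subunit named here outside the rule for naming genes, was far lower, at 1.68 ± 0.995 CPM per kilobase of exon.

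Plod1 (ENSMUSG00000019055.15, chromosome 4, 147909753 to 147936767), which hydroxylates lysines within the triple helix, led the lysyl hydroxylases at 558, 418 and 365 CPM. That is 66.1 ± 14.7 CPM per kilobase (SD, n = 3), with library 1 highest. Plod3 (ENSMUSG00000004846.10, chromosome 5, 136987019 to 136996648) encodes an enzyme that also adds glucose to hydroxylysine already carrying galactose. It followed at 164, 147 and 152 CPM, or 34.1 ± 1.90 CPM per kilobase. Its 3 values were nearly level. Plod2 (ENSMUSG00000032374.14, chromosome 9, 92542223 to 92608428) encodes the enzyme known for hydroxylating the telopeptides, the ends of the chains where crosslinks form. It was at 18.3, 36.7 and 35.0 CPM, or 5.57 ± 1.88 CPM per kilobase, and lowest in library 1.

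Plod1 exceeded Plod2 per kilobase by 4.6, 3.18 and 3.06 on the log2 scale in the 3 libraries, a mean of 12.2-fold. Plod3 exceeded Plod2 by 3.41, 2.26 and 2.37. Plod1 thus made up 67.5%, 61.1% and 57.3% of the lysyl hydroxylase total and Plod2 2.79%, 6.73% and 6.90%. The difference between Plod1 and Plod3, 0.93 ± 0.25 (SD, n = 3) per kilobase of exon, was 1.53 with the longest protein-coding transcript, so the size of that gap also followed the length while its direction did not.

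Loxl1 (ENSMUSG00000032334.9, chromosome 9, 58287738 to 58313186), a lysyl oxidase best known for its part in elastic fibres, was the most abundant of its family by mean. Its values were 186, 128 and 113 CPM, or 43.2 ± 11.7 CPM per kilobase (SD, n = 3). Loxl3 (ENSMUSG00000000693.10, chromosome 6, 83034173 to 83052562) was at 161, 101 and 81.3 CPM, or 24.9 ± 9.09 CPM per kilobase. Both genes were highest in library 1. Loxl1 exceeded Loxl3 in every library, by 0.69, 0.82 and 0.96 on the log2 scale per kilobase.

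Lox (ENSMUSG00000024529.13, chromosome 18, 52516067 to 52529867), the founding member of the family and a major crosslinking enzyme of fibrillar collagen and elastin, was at 32.4, 125 and 114 CPM. Per kilobase of exon that is 6.78, 26.2 and 23.8. Libraries 2 and 3 were close, and library 1 lay 3.87 and 3.51 times below them. Lox accordingly made up 6.68% of the lysyl oxidase total in library 1 but 28.5% and 29.3% in libraries 2 and 3. Its place relative to Loxl3 changed with it: Loxl3 was higher than Lox by 2.37 on the log2 scale in library 1 and lower by 0.26 and 0.43 in libraries 2 and 3 (differences of -0.26 and -0.43). Loxl1 was above Lox in all 3 libraries, by 3.06, 0.56 and 0.53.

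Loxl2 (ENSMUSG00000034205.16, chromosome 14, 69609068 to 69695834), known for crosslinking collagen IV of basement membranes, was at 16.3, 25.4 and 27.3 CPM, or 4.25 ± 1.09 CPM per kilobase (SD, n = 3). Loxl4 (ENSMUSG00000025185.14, chromosome 19, 42593982 to 42612813) had only 5, 50 and 22 counts, or 0.253, 1.69 and 0.851 CPM. Exact Poisson 95% intervals, which cover counting error only, were 0.0822 to 0.591, 1.25 to 2.22 and 0.533 to 1.29 CPM. Loxl4 was thus detected in each library, but at 0.248% ± 0.188 of the lysyl oxidase total (SD, n = 3). A count of 0 would have allowed up to 3 counts, which is 0.152, 0.101 and 0.116 CPM.

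**Figure D2:**
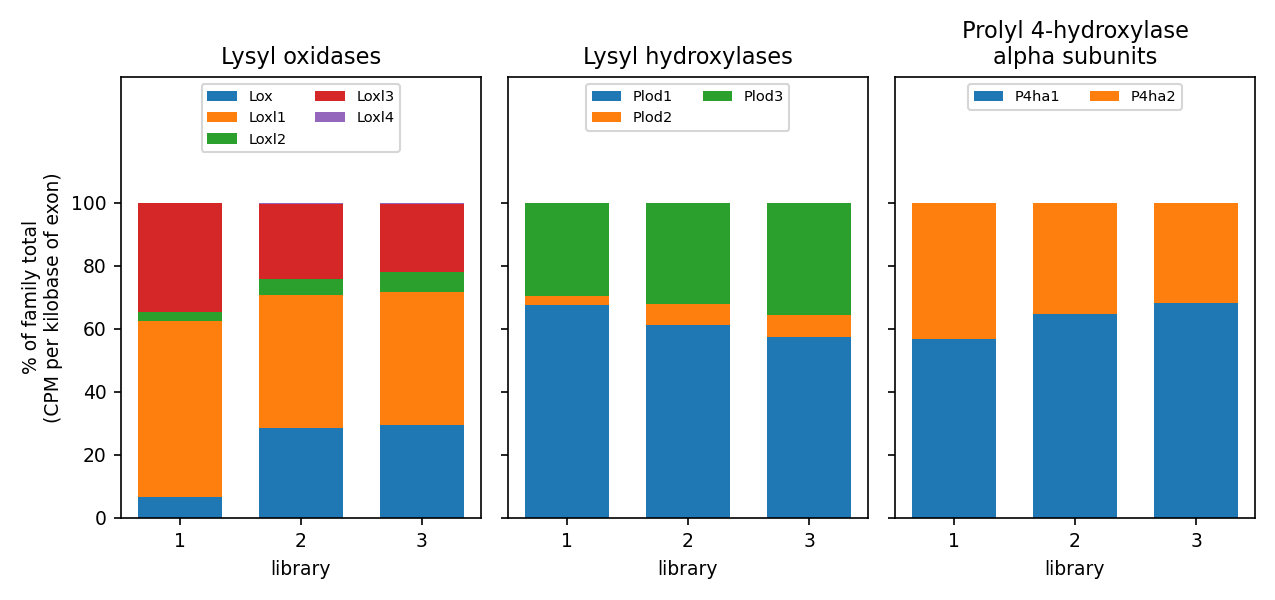
Share of each gene in the summed level of its family (CPM per kilobase of exon), one stacked bar per library. Lox is 6.68% of the lysyl oxidases in library 1 and 28.5% and 29.3% in libraries 2 and 3, while Loxl1 is the largest part in each library.

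Of the 14 pairs within families, 13 had the same order per kilobase of exon in all 3 libraries. The exception was Lox and Loxl3. An exact permutation test that flips signs over the libraries, two-sided, gave p = 0.25 for each of the 13 (0.269 after Benjamini-Hochberg adjustment over 14 pairs), which is the smallest value that 3 libraries allow. When all 10 genes were ordered by mean, as P4ha1, Plod1, P4ha2, Loxl1, Plod3, Loxl3, Lox, Plod2, Loxl2 and Loxl4, the ranges over libraries were apart for 1 of 9 neighbours, Loxl2 and Loxl4. Differences taken within a library are free of library size, but not of effects that differ by gene, such as the trend with GC content described below. On such differences, 7 of the 9 neighbours kept their order in all 3 libraries. Lox exceeded Plod2 by 1.60 ± 0.53 on the log2 scale (SD, n = 3), Plod1 exceeded P4ha2 by 0.42 ± 0.05, and P4ha2 exceeded Loxl1 by 0.20 ± 0.09. The order of P4ha1 and Plod1 (0.36 ± 0.38) and of Loxl3 and Lox (0.56 ± 1.57) differed between libraries. Among all 45 pairs, 43 had the same order in every library and ranges were apart for 35. With the longest protein-coding transcript as the length, the highest places went to Plod1 (138 ± 30.7 CPM per kilobase) and P4ha2, then P4ha1, while the 5 lowest kept theirs.

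Parts of some genes lie over other genes, and strand was not stated for the counting. Opposite-strand exons of Htra2 cover 11.6% of the exon bases of Loxl3, and those of Znhit1 cover 11.7% of Plod3. Both neighbours had counts of their own, 634 to 753 for Htra2 and 741 to 1237 for Znhit1. The unclassified gene model Gm38391, on the other strand, covers 6.42% of Plod2 exons and had 58, 94 and 87 counts. The antisense gene Gm27177 covers 5.57% of Loxl2 exons and had 0 counts in each library. Its own counts do not show whether reads of Loxl2 in the shared bases were left without a gene. The levels of Loxl3, Plod3, Plod2 and Loxl2 are uncertain to the extent of these overlaps.

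Whether any of the enzymes varied between libraries more than genes of their abundance was tested by goodness of fit in edgeR, at the dispersion trend and with adjustment over all 14409 genes. The filter on low counts, about 10 counts in every library, kept 9 of the 10 enzymes and left out Loxl4. None of the 9 passed an adjusted p of 0.05, where 63 genes did so in all (0.437%). At an unadjusted p under 0.05 there was 1 of the 9, Lox, beside 7.04% of all genes. DESeq2's rule for genes of outlying dispersion marked 0 of the 9, but only 12 of all 14409 genes (0.0833%). At so low a share, 0 of 9 says little about the enzymes. Lox had an adjusted p of 0.314 in edgeR's test, and each of the others had 0.9997. On counts simulated from these libraries, 123 of 200 genes changed 8-fold in 1 library were recovered. Smaller changes, such as the 3.87-fold range of Lox, were not simulated.

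Differences between library 1 and the others followed base composition across all genes, and the enzymes were read against that. The log2 level of library 1 minus the mean of libraries 2 and 3 was -1.85 for Lox (43.9% GC), -0.93 for Plod2 (43.0% GC) and -0.66 for Loxl2 (51.7% GC). It was 0.83 for Loxl3 (53.4% GC), 0.63 for Loxl1 (61.0% GC), 0.51 for Plod1 and 0.50 for P4ha2. P4ha1 (-0.09) and Plod3 (0.13) were near 0. Library 1 was the lowest for 5 of the 10 genes, beside 40.4% of all genes that passed the filter. Across the 10 genes, which share the same libraries, this difference had a Spearman coefficient of 0.648 with GC content, and across all genes it had 0.608.

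**Figure D3:**
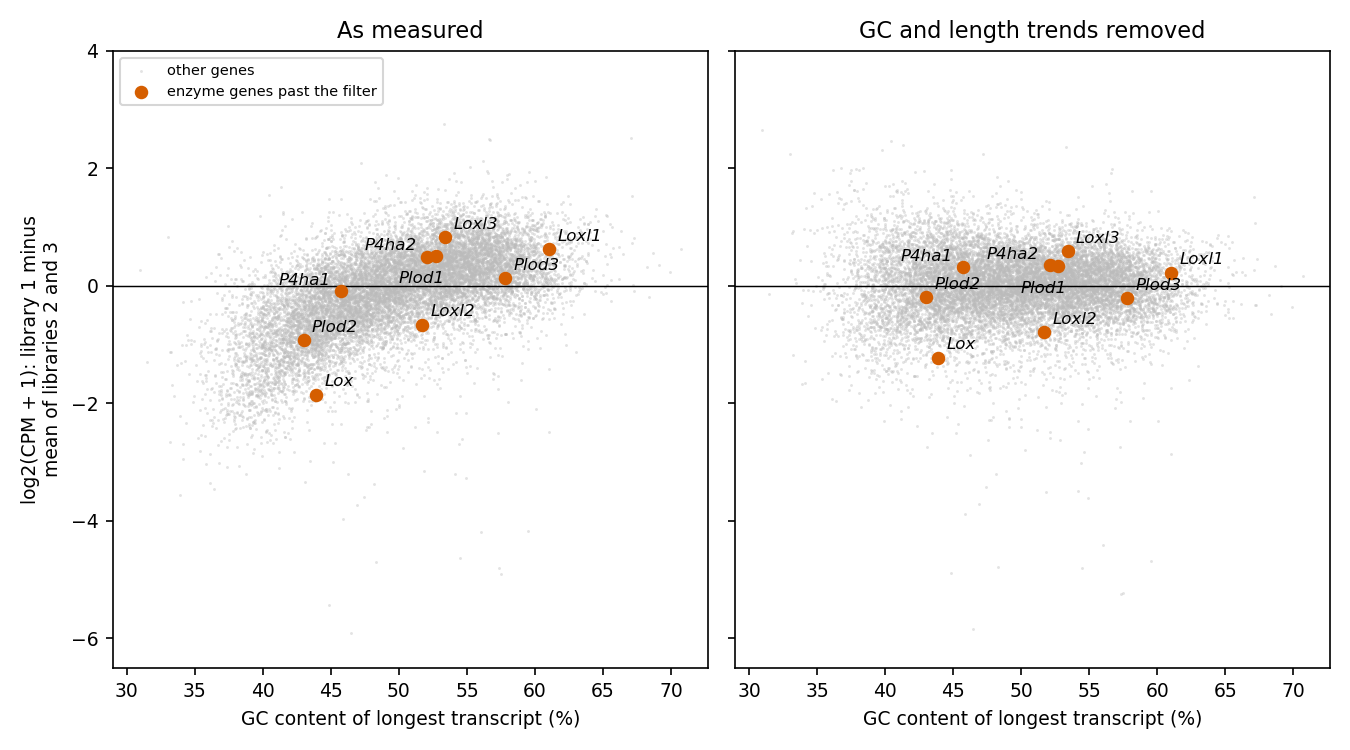
Difference in log2(CPM + 1) between library 1 and the mean of libraries 2 and 3 against the GC content of the longest transcript, for all genes past the filter (grey) and 9 enzyme genes (orange), as measured (left) and after trends with GC content and exon length were removed (right). Lox moves from -1.85 to -1.22 and Plod2 from -0.93 to -0.20.

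After trends with GC content and exon length were removed from each library, the difference for Plod2 was -0.20, for Loxl1 0.22 and for Loxl3 0.59. P4ha1 (0.32) and Plod3 (-0.21) changed sign, and P4ha2 (0.35) and Plod1 (0.34) did not. Lox was at -1.22 and Loxl2 at -0.79. Loxl1 then exceeded Lox by 2.36, 1.04 and 0.75 on the log2 scale in libraries 1, 2 and 3. Loxl3 minus Lox was then 1.79, 0.12 and -0.22, so that Lox was the higher in library 3 only. The adjusted p of Lox in edgeR was then 0.575. With the trends left in, the adjusted p of Lox was 0.9996 without library 1, 0.577 without library 2 and 0.590 without library 3. The unadjusted p of the same edgeR test was 0.721, 0.0111 and 0.0107 in that order. The spread of this gene thus lay mostly between library 1 and the rest, though no adjusted value was under 0.05.

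Some other measures also set library 1 apart. Mitochondrially encoded genes took 0.918% of its gene counts, against 3.60% and 3.46% in libraries 2 and 3. The summed level of 6 macrophage genes was 10.9, 237 and 684 CPM in libraries 1, 2 and 3, and that of 5 choroid plexus genes was 78.8, 1647 and 2394 CPM. All 6 macrophage genes and 2 of the choroid plexus genes passed the test, each lowest in library 1. The 7 mural cell genes summed to 3231, 2780 and 4942 CPM and the 6 fibroblast genes to 23530, 29180 and 25360 CPM. Schwann cell and oligodendrocyte genes summed to 2139, 1758 and 3333 CPM, like the mural genes highest in library 3. Endothelial (65.5 to 101 CPM), astrocyte and neuron (64.9 to 89.0 CPM) and arachnoid barrier genes (86.2 to 93.5 CPM) were summed likewise. Of the Schwann cell, oligodendrocyte, endothelial, astrocyte, neuron and arachnoid barrier genes, 0 passed. Single genes, named here outside the rule, could depart from their sum. Rgs5, of the mural genes, was at 69.4, 273 and 373 CPM. Of the arachnoid barrier genes, Dpp4 was at 0.811, 7.14 and 6.23 CPM and Krt19 at 38.6, 19.85 and 13.6 CPM. Enpp2 was the largest part of the choroid plexus sum, at 41.85, 1507 and 2243 CPM. Mog, of the oligodendrocyte genes, had 0 counts in library 2, and no other marker was at 0. Fibroblast markers thus had the highest sum in each library, with markers of other cells present. That sum rested largely on collagen chains that are also substrates here, Col1a1, Col1a2 and Col3a1. Col1a2 alone was at 11100, 12610 and 10880 CPM. Sums over lists of unequal size, not divided by length, do not give the proportions of cell types. The part of cell composition or of the mitochondrial share in the level of Lox was not tested, and in bulk samples fewer cells of a type and less RNA per cell cannot be told apart.

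The enzymes act with partners, and 7 lists of such genes, with collagen chains and elastin as substrates among them, were measured beside them. Of 8 genes for prolyl hydroxylation, all passed the filter and 0 were called variable. P4hb, which binds the alpha subunits, was at 325 ± 27.0 CPM per kilobase (SD, n = 3) and Ppib, a prolyl isomerase of the complex that 3-hydroxylates proline, at 82.0 ± 14.1. P4hb therefore stood above the summed alpha subunits (133) on this scale. Of 6 genes for lysine glycosylation and lysyl hydroxylase function, 5 passed the filter and 0 were called. Fkbp10, a chaperone needed for hydroxylation of telopeptides, was at 147 ± 21.9 CPM per kilobase and Fkbp14 at 29.6 ± 9.87, both above Plod2 itself (5.57).

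Procollagen folding and export genes, 8 in all, gave 0 calls. Serpinh1, the collagen chaperone Hsp47, was at 1083 ± 194 CPM per kilobase, and the chaperone Hspa5 at 576 ± 70.1. For trimming of procollagen and activation or placing of lysyl oxidase, 10 of 11 genes passed the filter and 1 was called. Pcolce, an enhancer of procollagen C-proteinase, was at 490 ± 99.1 CPM per kilobase, and Fbln4 (listed as Efemp2), which tethers lysyl oxidase to elastin, at 102 ± 31.4. The gene called was Postn, a matricellular protein that promotes activation of lysyl oxidase, at 27.1, 180 and 79.2 CPM (edgeR adjusted p = 0.0442). Postn was, like Lox, lowest in library 1, and its GC content was 36.3%.

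On a list of other crosslinkers, the transglutaminase Tgm2, which links proteins of the matrix, was at 31.1 ± 8.82 CPM per kilobase. That list also held Prdx4 (51.3 ± 7.002 CPM per kilobase), a peroxidase of the endoplasmic reticulum that acts in disulfide formation and does not crosslink matrix. There 4 of 5 listed genes were in the table, 3 passed the filter and 0 were called. Among 7 genes for cofactor supply, 6 passed the filter and 0 were called. The copper chaperone Atox1 was at 303, 87.0 and 132 CPM, or 321 ± 210 CPM per kilobase, and the ascorbate transporter Slc23a2 at 2183, 1819 and 1303 CPM, or 222 ± 55.6 CPM per kilobase. Atox1 (59.3% GC) was highest in library 1. Library 1 was the lowest for 3 of the 7 genes, beside 40.4% of all genes that passed the filter. These 3, named outside the rule, included the copper transporters Slc31a1 (71.99, 127 and 134 CPM, 43.7% GC) and Atp7a (25.6, 53.1 and 37.1 CPM, 44.6% GC). The third was Tfrc (19.9, 85.5 and 58.9 CPM, 39.8% GC).

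**Figure D4:**
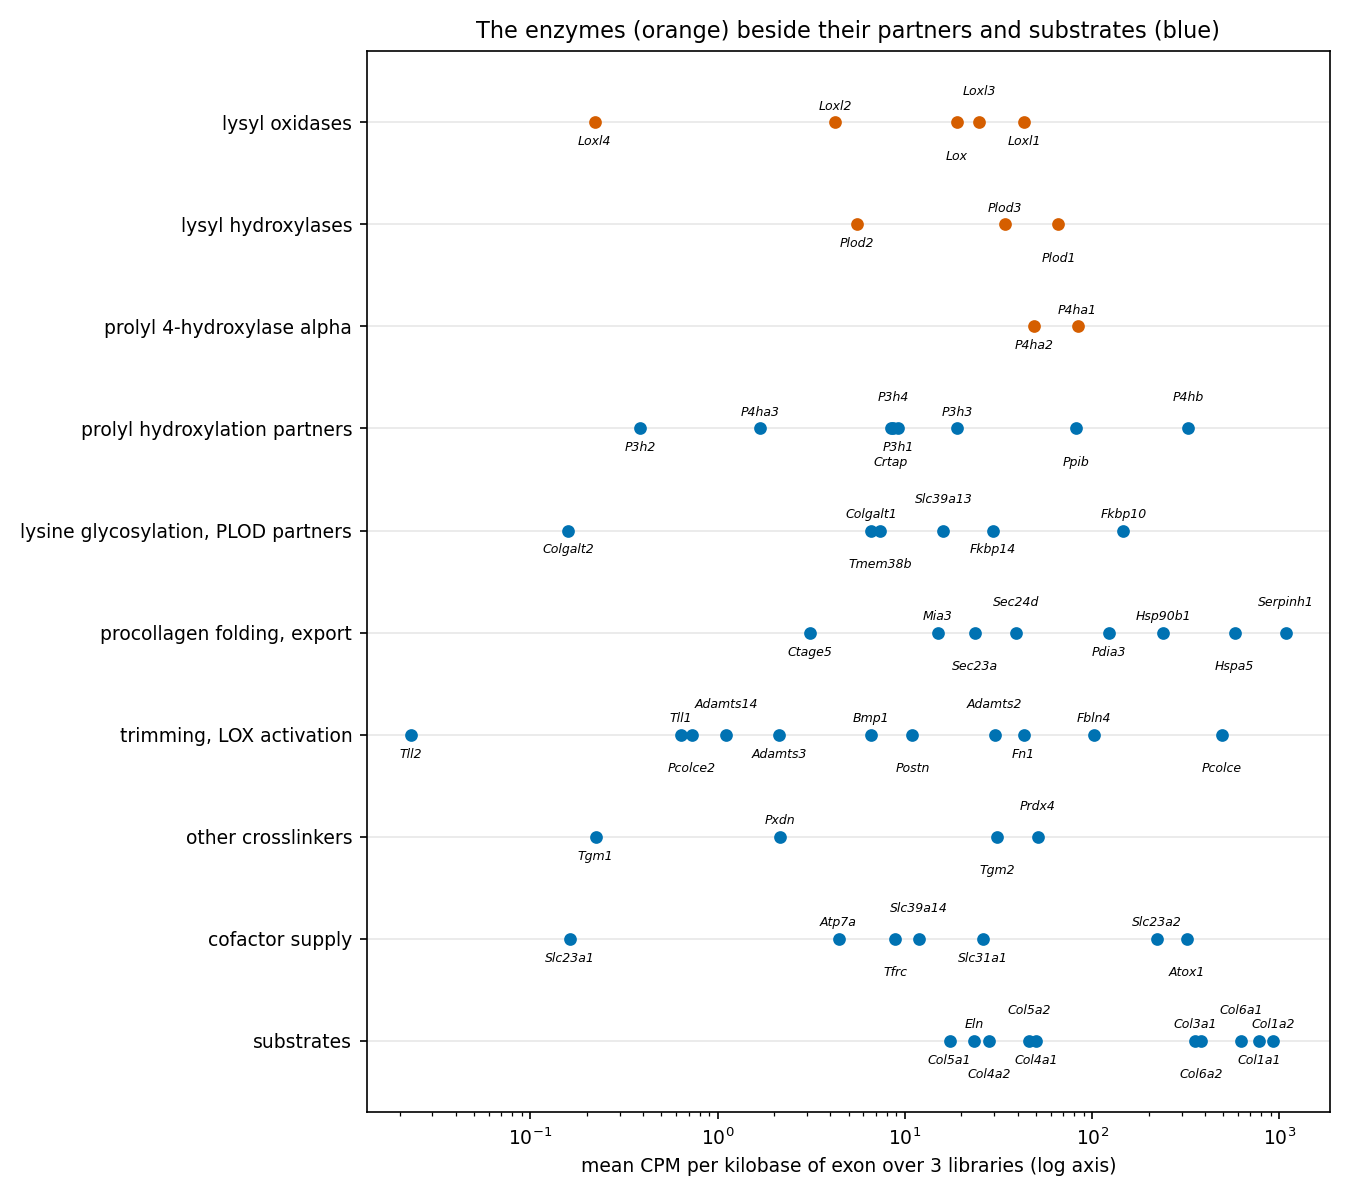
Mean level over 3 libraries (CPM per kilobase of exon, log axis) of the enzyme genes (orange) and of the listed partners and substrates (blue), one row per list. Serpinh1 at 1083 and Col1a2 at 928 lie to the right of all enzymes, and Plod2 at 5.57 lies left of its partner Fkbp10 at 147.

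All 10 substrate genes passed the filter and 0 were called. Col1a2 was at 928 ± 75.5 CPM per kilobase and Col1a1 at 779 ± 130. The chains Col1a1, Col1a2, Col3a1, Col5a1 and Col5a2 of fibrillar collagen summed to 1802, 2403 and 2166 CPM per kilobase in libraries 1, 2 and 3. For each unit of prolyl 4-hydroxylase alpha subunit transcript there were 12.8, 19.1 and 16.5 units of these chains. The ratio was 14.8, 23.8 and 23.0 for lysyl hydroxylases and 17.8, 26.1 and 26.7 for lysyl oxidases. Each of the 3 ratios was lowest in library 1. They are not separate results, since they share the sum of the chains, which was itself lowest there. The summed level of each enzyme family was highest there. With the longest protein-coding transcript as the length of chains and enzymes, the means for the hydroxylases changed little, from 16.1 to 17.2 for the prolyl and from 20.5 to 19.8 for the lysyl enzymes. The mean for lysyl oxidases rose from 23.5 to 39.9.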

How the data were processed

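Bulk RNA sequencing of 3 libraries was used. The deposited values were raw counts per gene, whole numbers without normalization; HTSeq 0.5.3 and mm10 are named in the submitters' processing notes, which also name DESeq2 1.22.1. The aligner, the strand setting and the annotation release were not given in the sources used here. The totals over genes were 21002860 (library 1), 28704952 (library 2) and 25338616 (library 3); reads given to no gene (45.6%, 39.1% and 39.6% of all reads in the table, genes included) were left out. TMM scaling used edgeR 4.0.16 (R 4.3.3) and the 14409 genes kept by filterByExpr at 10 counts. Positions, exon lengths and GC content came from GENCODE M21 (GRCm38), which held 98.9% of the gene identifiers. Log2 values are log2(CPM + 1), which understates changes of low genes; differences between genes within a library carry no added constant. A quasi-likelihood contrast needs more than 1 group, so edgeR's goodness-of-fit test was used with Benjamini-Hochberg adjustment, and was tested on simulated data (123 of 200 genes changed 8-fold recovered, 3 false calls). DESeq2 1.42.0 served as an alternative. Named genes were all 10 enzymes and, of other lists, the 2 most abundant per kilobase, any called and any at 0. Markers are given as sums, and genes named outside this rule are marked as such. The enzymes and lists were chosen with earlier results of these data known.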

Additional observations from a re-analysis of the deposited data

Results flagged for a closer look

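Reads that overlapped more than 1 gene, which the table counts without a gene and which the comparisons did not use, made up 1.39%, 1.35% and 1.31% of all reads in libraries 1, 2 and 3. They were noted because they are a signal above what a count of 0 allows. The table gives no gene for these reads, so the share from any of the 10 enzyme genes is not known.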

How the results depend on the processing

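The number of enzymes called variable between libraries was 0 under DESeq2's size factors, plain totals, no filter, a minimum of 10 counts in every library, a mean of 10 counts (chosen after seeing the data), the common dispersion, removal of GC content and length trends, DESeq2's dispersion outliers, and with each library left out. Under these settings only 0.0816% (without library 3) to 1.1% (a mean of 10 counts) of all genes tested were called. The repeated 0 among 9 or 10 enzymes therefore says little about them. The share of the 10 genes was 0.101% per kilobase of exon, where all genes are divided by length, against 0.164%. The order of P4ha1 and P4ha2 (0.79) reversed to -0.22 with the longest transcript and to -0.65 with the longest protein-coding transcript (chosen after seeing the data), since P4ha2 has the larger gap between these lengths. For Loxl3 minus Lox (0.56) the mean ranged from -0.34 without library 1 to 1.06 without library 3. Removal of the trends kept the order of 9 of 10 pairs in every library and cannot move a pair's mean over the 3 libraries by its construction. No paired analysis was possible because there is no second group to pair with; genes were compared within each library. Depth limited Loxl4, with 5 counts in library 1.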

Other observations

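Genes known to be induced by low oxygen were listed because P4ha1, P4ha2, Plod2 and Lox are known targets of the same hypoxia-inducible factors. Of 10 such genes 9 passed the filter and 0 were called variable (edgeR goodness of fit), and 0 had an unadjusted p under 0.05. Ldha, a glycolytic enzyme, was at 1404, 726 and 1614 CPM, and Ndrg1 at 785, 680 and 1168 CPM, both lowest in library 2. These 2 genes made up most of the sum over the list, 2535, 1667 and 3066 CPM. Library 1 was the lowest for 2 of the 10 genes, beside 40.4% of all genes that passed the filter. These were Bnip3 (18.3, 37.4 and 42.3 CPM) and Egln3 (4.05, 9.94 and 6.65 CPM), named outside the rule. Others were highest in library 1, such as Adm (125, 66.6 and 49.96 CPM) and Vegfa (45.65, 35.4 and 17.75 CPM). A part of low oxygen in the levels of Lox and Plod2 was not tested.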
